A study of Homo sapiens with 11 samples.

Results

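Cardiomyocytes of a human 2D culture that carried transcripts of *GRIA4*, *ALK* and *PTPRR* are described here, cell by cell from UMI counts. They were chosen on measured values in run 1 of each group. A cardiomyocyte was a cell barcode with at least 1000 UMIs (counted transcript molecules) and 500 genes, at most 30% of UMIs from mitochondrially encoded genes, and at least 0.15% of UMIs from *TNNT2* and *MYH6*. A chosen cell had, in addition, 3 or more UMIs of *GRIA4*, *ALK* and *PTPRR* together, fewer than 2 of *MYL2* and fewer than 3 of *CKM* and *ENO3*. Of 17346 barcodes in the run 1 matrices, 16397 passed the filter, 13426 were cardiomyocytes and 1744 were chosen. The 2D culture held 1327 of those, beside 5632 other cardiomyocytes. Since these values picked the cells, every difference between chosen and other cells in run 1 is a description and none was tested.

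All cells came from H9, a human embryonic stem cell line, and were sequenced from transcript 3′ ends on day 42.5. The 3 groups were a 2D culture, cardioids (heart organoids) treated with PD173074, which blocks FGF receptors, and cardioids left without PD173074. The labels name neither the timing of PD173074 nor separate cultures or a differentiation protocol, and version 2 or 3 of the kit is not tied to any library. The model is therefore 1 cell line with 1 sample in each group.

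*GRIA4* encodes a subunit of AMPA receptors, glutamate-gated cation channels best known from fast synapses in the brain. *ALK* encodes a receptor tyrosine kinase of developing nerve cells that is activated by ALKAL ligands, and *PTPRR* encodes a receptor-type phosphatase that acts on MAP kinases. The set was named with 2 further genes that the rule did not use, *RSPO2*, an R-spondin that strengthens WNT signals, and *GJA3*, which encodes the gap junction protein connexin 46. *MYL2* is the ventricular regulatory myosin light chain, and *CKM* and *ENO3* encode muscle creatine kinase and muscle enolase.

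In RefSeq on GRCh38.p14, *GRIA4* lies at chr11:105609994-105982090 and spans 372.1 kb. *ALK*, at chr2:29192774-29921586, spans 728.8 kb, and *PTPRR*, at chr12:70638073-70920738, spans 282.7 kb. *GJA3*, at chr13:20138255-20161565, spans 23.3 kb. The deposited counts are per whole gene, so exons and introns were not told apart.

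Within a group, runs shared 99.3% to 99.9% of the barcodes of the shorter list, and different groups shared at most 0.737%. The runs were therefore taken as repeat reads of 1 set of droplets, and each group as 1 sample. A run of the 2D culture held between 43908067 and 46304366 UMIs, a run with PD173074 between 36127841 and 37765195, and a run without PD173074 between 12266166 and 24495291. Of the chosen 2D barcodes, 5 were also listed without PD173074 and 0 with it, and 0 were chosen in more than 1 group. All 95% intervals given are exact and cover counting error only. With 1 sample a group, no difference between groups has a replicate check.

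The chosen cells made up 19.1% of cardiomyocytes in the 2D culture (1327 of 6959, interval 18.2 to 20.01%). The same rule took 1.62% with PD173074 (55 of 3385, 1.23 to 2.11%) and 11.7% without PD173074 (362 of 3082, 10.6 to 12.9%). The set was thus not limited to the 2D culture: cardioids without PD173074 held it too, and few cells of the other cardioids met the rule. The order of the 3 groups was the same after each cell was thinned to 3000 UMIs, which left 16.1% (894 of 5560 cells deep enough) in the 2D culture, 0.531% (15 of 2827) with PD173074 and 7.62% (207 of 2718) without it. At 5000 UMIs the shares were 29.8%, 0.934% and 14.2% in that order, over fewer and deeper cells.

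No gap separated chosen cells from the rest. Of the 6959 cardiomyocytes of the 2D culture, 2499 (35.9%) had 0 UMIs of the 3 genes, 1417 had 1, 922 had 2, 609 had 3, 401 had 4 and 314 had 10 or more. With PD173074, 90.8% of cardiomyocytes had 0, and without PD173074 56.0% did. In every group cells with 2 UMIs were more frequent than cells with 3, and those more frequent than cells with 4, so the set is a range cut from a graded count.

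**Figure D1:**
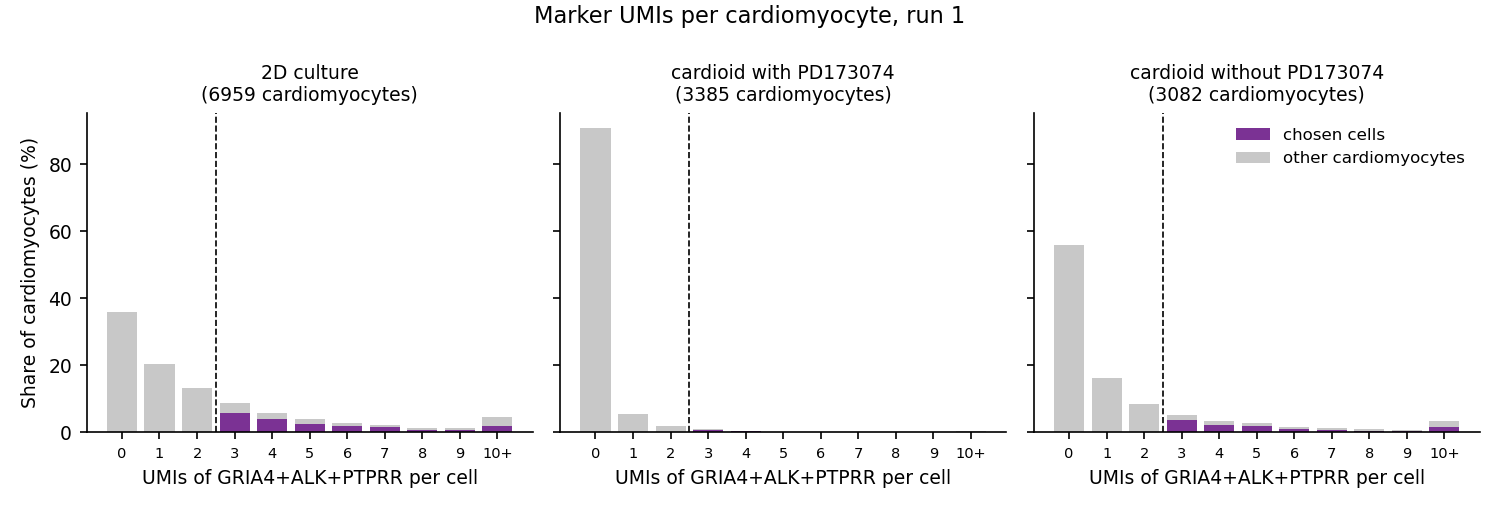
Share of cardiomyocytes (%, y axis) by their UMIs of GRIA4, ALK and PTPRR together (x axis) in run 1 of the 3 groups, with chosen cells in purple and other cardiomyocytes in grey; the dashed line is the threshold of 3 UMIs. Cells with 0 UMIs were 35.9% of the 2D culture, 90.8% with PD173074 and 56.0% without it, and no gap lies at the threshold.

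*GRIA4* supplied most of the UMIs that chose the cells. In the chosen 2D cells, 5309 of these UMIs (71.7%) were of *GRIA4*, 1645 (22.2%) of *ALK* and 448 (6.05%) of *PTPRR*. *GRIA4* was detected in 1256 of the 1327 cells, with a median of 3 and at most 35 UMIs in a cell, *ALK* in 630 and *PTPRR* in 323. All 3 genes were detected together in 137 cells (10.3%), 2 of them in 608 (45.8%) and 1 in 582 (43.9%), and 539 cells (40.6%) were chosen through *GRIA4* alone. With PD173074, 43 of 55 cells had 1 of the 3 genes and 12 had 2. Without PD173074 the split was 198 cells with 1 gene, 139 with 2 and 25 with all 3.

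Among chosen 2D cells, the summed level in CPM (UMIs of a gene per 1000000 UMIs of the set) was 669 for *GRIA4*, against 215 CPM in other cardiomyocytes. *ALK* had 207 CPM in chosen and 71.6 CPM in other cells, and *PTPRR* 56.4 CPM in chosen and 27.8 CPM in other cells. The other cells of the 2D culture thus carried these transcripts as well. After thinning to 3000 UMIs, *GRIA4* was detected in 82.1% of chosen cells, 35.8% of other cardiomyocytes and 6.61% of collagen-high barcodes, which fell under the cardiomyocyte cut and had at least 1% of UMIs from *COL1A1*, *COL1A2* and *COL3A1*. Unthinned, those shares were 94.7%, 43.5% and 13.8%, at median depths of 5278, 4078 and 10656 UMIs. Thinned *ALK* was detected in 33.2% of chosen cells, 13.7% of other cardiomyocytes and 1.95% of collagen-high barcodes, and *PTPRR* in 13.7%, 7.45% and 0.778%. With PD173074 the shares in other cardiomyocytes did not exceed those in collagen-high barcodes. After thinning, *GRIA4* was detected in 55.6% of chosen cells, 1.73% of other cardiomyocytes and 5.88% of collagen-high barcodes. *ALK* was detected in 29.6%, 1.48% (1.06 to 2.00%) and 10.6% (4.96 to 19.2%). Median depths before thinning were 9583, 6169.5 and 9845 UMIs. Whether the shares in other cardiomyocytes are background was not tested.

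Depth entered the choice. Chosen 2D cells had a median of 5278 UMIs and 2649 genes, and other cardiomyocytes 4078 UMIs and 2124 genes. With 2D cardiomyocytes parted by UMIs into 4 sets of equal size, the chosen share was 7.99% in the shallowest set, 15.1% and 26.3% in the next ones and 26.9% in the deepest. The share with 3 or more UMIs of the 3 genes, before the other limits, climbed further, with 8.74%, 18.7%, 35.9% and 58.5% over the same sets. Mitochondrially encoded genes held a median of 5.32% of UMIs in chosen cells and 5.08% in other cardiomyocytes.

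The limits on *CKM* and *ENO3* removed many more cells than the limit on *MYL2*. Of the 2121 2D cardiomyocytes with 3 or more UMIs of the 3 genes, 780 (36.8%) had 3 or more UMIs of *CKM* and *ENO3*, and 34 (1.60%) had 2 or more of *MYL2*. Among the 4838 with fewer than 3 such UMIs, 24.7% had 3 or more of *CKM* and *ENO3* and 4.24% had 2 or more of *MYL2*. Deeper cells also had more *CKM* and *ENO3*, with 10.5% of the shallowest and 50.7% of the deepest set at 3 or more UMIs, so the part of depth in these shares was not tested apart from the genes.

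Cells with exactly 3 UMIs of the 3 genes, just inside it, had a median depth of 4332 UMIs, and those with exactly 2, just outside it and within the other limits, 4189.5. *GPC5*, a glypican, had 321 CPM just inside and 283 CPM just outside, *LRP1B*, a large receptor of the LDL receptor family, 360 and 336 CPM, and *MYL7*, the atrial myosin light chain, 923 and 959 CPM. *RSPO2* had 84.4 CPM just inside and 87.1 CPM just outside. Intervals did not overlap for *TAGLN*, an actin-binding protein, with 176 CPM just inside and 136 CPM just outside, or for *MGP*, an inhibitor of calcification, with 56.3 and 82.8 CPM. The same held for *ANKRD1*, a stretch-responsive muscle protein, with 8.18 CPM from 16 UMIs and 1.65 CPM from 5 UMIs. It also held for *ACTC1*, cardiac alpha-actin, with 1355 and 1461 CPM, and for *TNNT2*, with 1950 and 2069 CPM. *NEAT1*, a nuclear RNA, had 409 CPM just inside and 352 CPM just outside, again without overlap. *TAGLN* and *ANKRD1*, higher just inside, were lower over all chosen 2D cells than in other cardiomyocytes, with log2 ratios of -1.16 and -3.32. The counting intervals leave out differences between cells, and a step at the threshold was not tested.

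Repeat reads of the same droplets show how steady the choice was. Of the 1327 cells chosen in run 1 of the 2D culture, 729 (54.9%) met the rule again in run 2, 696 (52.4%) in run 3 and 458 in all 3 runs. In run 2, 386 of them had fewer than 3 UMIs of the 3 genes and 188 more were past the limits on *MYL2*, *CKM* or *ENO3*. With PD173074, 32 of 55 cells met the rule again in run 2 and 30 in run 3. Without PD173074, 207 of 362 did in run 2 and 149 in run 3, which was the shallowest run. The share of cells chosen moved little in the 2D culture, at 19.1%, 19.8% and 19.1% in runs 1, 2 and 3.

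The cells chosen in run 1 averaged 5.58 UMIs of the 3 genes there, 4.75 in run 2 and 4.69 in run 3. Cells with more of these UMIs met the threshold again more often. Cells with exactly 3 in run 1 averaged 2.56 in run 2, where 45.9% again had 3 or more. Cells with 7 or more averaged 10.1 in run 1 and 8.68 in run 2, where 95.6% again had 3 or more. Cells with 0 in run 1 averaged 0.382 in run 2, so the order of these averages was kept, while 10.9% of cells with 3 in run 1 had 0 in run 2 and 2.86% of cells with 0 had 3 or more.

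In the runs that did not choose them, these cells still had more of the 3 genes than other cardiomyocytes. *GRIA4* had a log2 ratio of 1.64 in run 1 (interval 1.58 to 1.69), 1.34 in run 2 (1.28 to 1.39) and 1.37 in run 3. *ALK* had 1.53 in run 1, 1.19 in run 2 and 1.24 in run 3, and *PTPRR* 1.02, 0.59 and 0.59. The ratios were thus smaller in every run that did not choose the cells. Outside the rule, *GPC5* had 0.74, 0.71 and 0.71 and *MYL7* -1.38, -1.39 and -1.34, while genes of few UMIs moved more, such as *ANXA3* with -1.28, -1.69 and -1.35 and *RGS4* with 0.92, 0.75 and 0.94. These runs share their droplets, so they repeat the reading and not the culture.

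**Figure D2:**
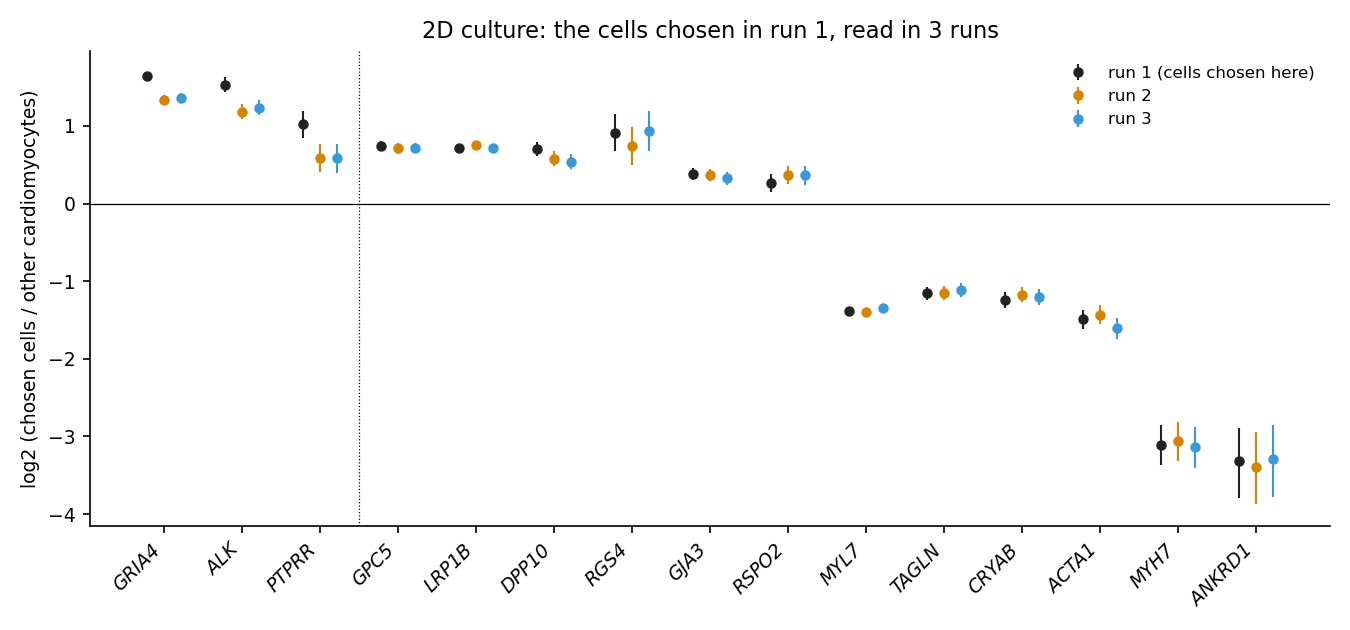
Log2 ratio of CPM in the 2D cells chosen in run 1 over other cardiomyocytes (y axis), read in runs 1, 2 and 3 (black, orange, blue), with 95% counting intervals; genes left of the dotted line are those of the rule. GRIA4 had 1.64 in run 1 and 1.34 in run 2, while MYL7 had -1.38 and -1.39.

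*RSPO2* and *GJA3*, the markers of the set that the rule left unused, differed little. *GJA3* had 227 CPM in chosen 2D cells and 174 CPM in other cardiomyocytes, a log2 ratio of 0.39 (0.31 to 0.46). *RSPO2* had 98.0 CPM in chosen cells and 81.6 CPM in other cardiomyocytes, a log2 ratio of 0.26 (0.14 to 0.38). Both intervals lay above 0 and neither lay beyond 1.5-fold. After thinning, *GJA3* was detected in 47.9% of chosen cells, 36.8% of other cardiomyocytes and 4.67% of collagen-high barcodes, and *RSPO2* in 21.4%, 18.0% and 1.56%; unthinned, *GJA3* was in 65.6%, 47.9% and 14.2% and *RSPO2* in 31.7%, 24.9% and 6.25%. These 2 markers thus set 2D cardiomyocytes apart from collagen-high barcodes far more than chosen cells from other cardiomyocytes, and the name is used here only for the rule's genes.

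Each gene of the rule was also read in cells picked by the other 2, among cells within the limits on *MYL2*, *CKM* and *ENO3*. *ALK* had 119 CPM in 1629 2D cells with 2 or more UMIs of *GRIA4* and *PTPRR*, against 67.8 CPM in 2142 cells with 0, a log2 ratio of 0.81 (0.66 to 0.96), and 0.84 after the second set was weighted to the depths of the first. *PTPRR* had 39.0 CPM in cells picked by *GRIA4* and *ALK*, against 24.7 CPM at 0, a ratio of 0.66 (0.40 to 0.92). *GRIA4* had 391.8 CPM in cells picked by *ALK* and *PTPRR*, against 299 CPM at 0, a ratio of 0.39 (0.30 to 0.48). Some genes outside the rule differed more in these picks. *LRP1B* had a ratio of 1.13 and *GPC5* one of 1.21 in the cells that gave *ALK* its 0.81. In those that gave *GRIA4* its 0.39, *LRP1B* had 0.90 and *GJA3* 0.58, but *GPC5* only 0.30 (0.20 to 0.40). In the same pick by *ALK* and *PTPRR* without PD173074, *GPC5* had a ratio of -0.006 (-0.18 to 0.16). With PD173074 the ratios were 2.04 for *ALK* and 1.52 for *GRIA4*, and *PTPRR* had only 2 UMIs in the picked cells, with a ratio of -0.63. Without PD173074 they were 1.42 for *ALK*, 1.31 for *PTPRR* and 0.95 for *GRIA4*. Weighted to equal depth, those without PD173074 fell to 1.10, 1.03 and 0.65. With PD173074 the weighted ratios were 1.78 for *ALK* and 1.93 for *GRIA4*. In the 2D culture they were 0.72 for *PTPRR* and 0.31 for *GRIA4*.

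Chosen cells did not form a group of their own among their nearest neighbours. With cells thinned to 3000 UMIs and the 6 genes of the rule left out, chosen cells were 22.0% of 2D cardiomyocytes, 29.1% of the 15 nearest neighbours of chosen cells and 18.4% of those of other cells. That is 1.32 times their overall share. Cells with 2 or more UMIs of *MYL2*, read the same way, were 3.69% of cells and 38.9% of one another's neighbours, which is 10.5 times their share. Cells with 3 or more UMIs of *CKM* and *ENO3* were 33.4% of cells and 38.1% of one another's neighbours, or 1.14 times their share. A smaller class can reach a larger multiple, so these multiples are not like for like. Without PD173074, chosen cells were 12.9% of cells and 21.2% of one another's neighbours (1.64 times). In the 2D culture, chosen cells with 7 or more UMIs of the 3 genes were 6.03% of cells and 11.3% of one another's neighbours.

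Across all genes, few differed by much between the 2 sets of the 2D culture. A gene was counted when it had 20 CPM or more in the higher set and its whole counting interval lay beyond 1.5-fold, leaving out the 6 genes of the rule. Of 7829 genes at that level, 4 were higher in chosen cells (0.0511%) and 23 were lower (0.294%), and the median log2 ratio of all of them was 0.07. After the other cells were weighted to the depths of the chosen ones, all 4 higher genes and all 23 lower ones were still counted.

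The 4 higher genes were *RGS4*, *GPC5*, *LRP1B* and *DPP10*. *RGS4*, a regulator that shortens G protein signals, had 27.2 CPM in chosen cells and 14.4 CPM in other cardiomyocytes, a log2 ratio of 0.92 (0.67 to 1.16). *GPC5* had 358 CPM in chosen and 215 CPM in other cells (0.74, 0.68 to 0.80), and *LRP1B* 473 and 288 CPM (0.71, 0.66 to 0.77). *DPP10*, an auxiliary subunit of Kv4 potassium channels, had 182 CPM in chosen and 112 CPM in other cells (0.70, 0.61 to 0.79). None of the 4 had its interval beyond 2-fold, and where cells were chosen anew in run 2 or in run 3, only *LRP1B* of the 4 was counted again.

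The lower genes were led by muscle genes. *ANKRD1*, a stretch-responsive protein of the sarcomere, had 5.54 CPM in chosen cells and 55.5 CPM in other cardiomyocytes, a log2 ratio of -3.32 (-3.79 to -2.89). *MYH7*, the slow myosin heavy chain, had 16.5 CPM in chosen and 142 CPM in other cells (-3.11, -3.37 to -2.86). *MYL7* had 759 CPM in chosen and 1973 CPM in other cells (-1.38, -1.42 to -1.34). *ACTA1*, skeletal alpha-actin, had a ratio of -1.49, *HSPB3* and *CRYAB*, small heat shock proteins of muscle, -1.38 and -1.24, and *TAGLN*, an actin-binding protein of smooth muscle and immature heart, -1.16. *TNNC1*, cardiac troponin C, had 440 CPM in chosen and 851 CPM in other cells (-0.95), and *ACTC1*, cardiac alpha-actin, 1174 and 2100 CPM (-0.84).

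Some genes at the low end are not parts of the sarcomere. *FZD1*, a WNT receptor, had 9.95 CPM in chosen cells and 25.7 CPM in other cardiomyocytes (-1.37). *ANXA3*, a calcium-dependent membrane-binding annexin, had a ratio of -1.28, *COL19A1*, a collagen chain, -1.23, and *MGP*, an inhibitor of calcification, -1.08. With cells chosen anew, *ANXA3* was not counted as lower in run 2, and *COL19A1* in neither run 2 nor run 3. At the 0.3% cut of *TNNT2* and *MYH6*, *FZD1*, *ANXA3* and *COL19A1* were not counted as lower. *POPDC2*, a cAMP-binding membrane protein of heart muscle, had 30.1 CPM in chosen and 61.2 CPM in other cells (-1.02). The rest of the 23 were *BANCR*, *PDLIM3*, *MECOM*, *MARCH11*, *TNFRSF12A*, *AL136171.2*, *TNNI3*, *MYOZ2* and *MYL3*, with ratios of -0.96 to -0.73.

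**Figure D3:**
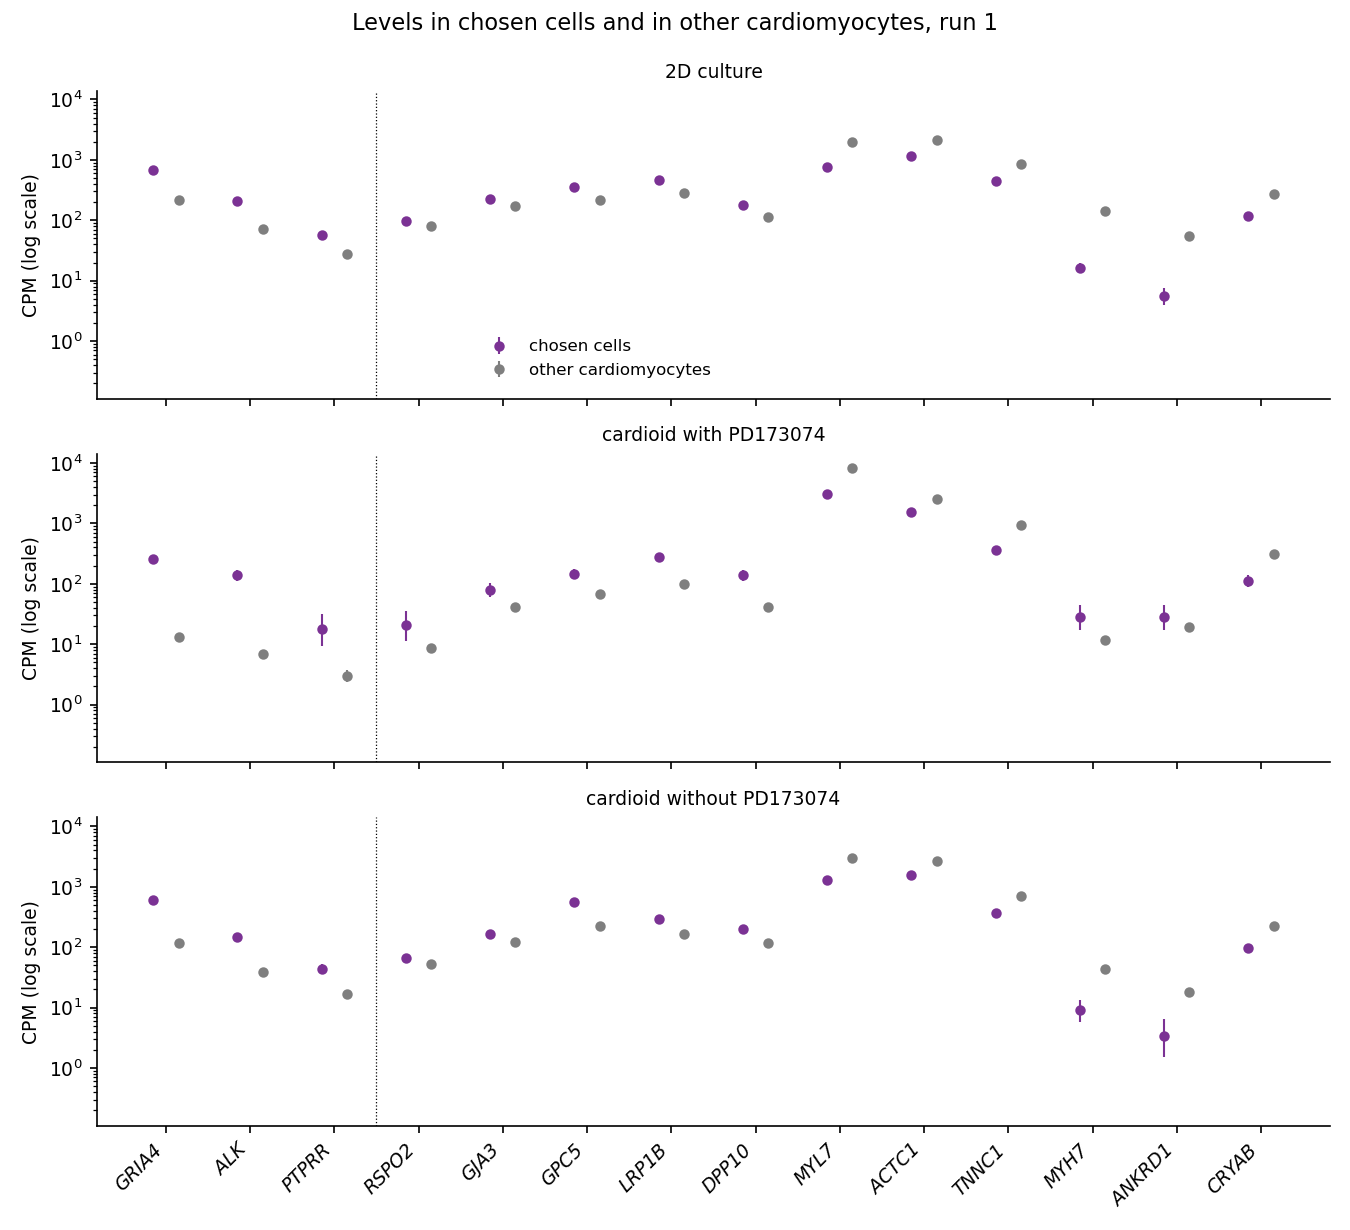
Level in CPM (log scale, y axis) of 14 genes in chosen cells (purple) and other cardiomyocytes (grey) of run 1 in the 3 groups, with 95% counting intervals; the dotted line parts the genes of the rule from the rest. In the 2D culture GPC5 had 358 CPM in chosen and 215 CPM in other cells, and MYL7 759 CPM in chosen and 1973 CPM in other cells.

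These ratios also depend on the comparison cells, since the rule kept *MYL2*-positive cells out of the chosen set and left them among the others. The 239 2D cardiomyocytes with 2 or more UMIs of *MYL2* had 1510 CPM of *MYH7* and 478 CPM of *ANKRD1*. Against the 3539 other cells within the same limits, *ANKRD1* had a log2 ratio of -2.14, *MYH7* -2.06, *ACTA1* -0.86 and *MYL7* -1.25. On that basis 10 of 7846 genes were higher (0.127%) and 20 were lower (0.255%), with all 4 higher genes and 17 lower genes shared with the first comparison. The genes added on the higher side included *KHDRBS2*, an RNA-binding protein, at 395 CPM in chosen and 213 CPM in other cells (0.89), *ANGPT1*, a ligand of the TIE2 receptor, at 68.6 and 36.2 CPM (0.92), *KCNQ3*, an M-current potassium channel, at 77.8 and 45.7 CPM (0.77), and *ALDH1A2*, which makes retinoic acid, at 40.4 and 22.4 CPM (0.85). *DISC1FP1* and *AC019197.1* completed the list.

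Several genes were graded along the number of UMIs of the 3 genes. Within the limits, *GPC5* had 144 CPM in 2D cells with 0 of these UMIs, 231 CPM with 1, 283 with 2, 321 with 3, 333 with 4, 370.5 with 5 to 6 and 393 with 7 or more. *LRP1B* went along, with 183 CPM at 0 and 563 CPM at 7 or more, as did *GJA3*, with 148 and 260 CPM. *MYL7* ran the other way, with 2488 CPM at 0, 1368 at 1, 959 at 2, 923 at 3 and 566 CPM at 7 or more. *ACTC1* had 2418 CPM at 0 and 965 CPM at 7 or more, *TNNC1* 882 and 371 CPM, and *TNNT2*, which served in the cardiomyocyte cut, 2418 and 1637 CPM. Other genes showed no steady order between the ends. *RSPO2* had 67.7 CPM at 0 and 118 CPM at 7 or more. From 1 to 6 UMIs it lay between 84.4 and 96.1 CPM in no order. *MYH7* had 112 CPM with 0 UMIs and 41.5 with 1, and lay between 11.5 and 25.1 CPM from 2 on. *MGP* had 120 CPM at 0, 37.5 at 1, 82.8 at 2 and 27.2 at 7 or more. Median depth moved along, with 3304 UMIs at 0 and 6562 at 7 or more.

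**Figure D4:**
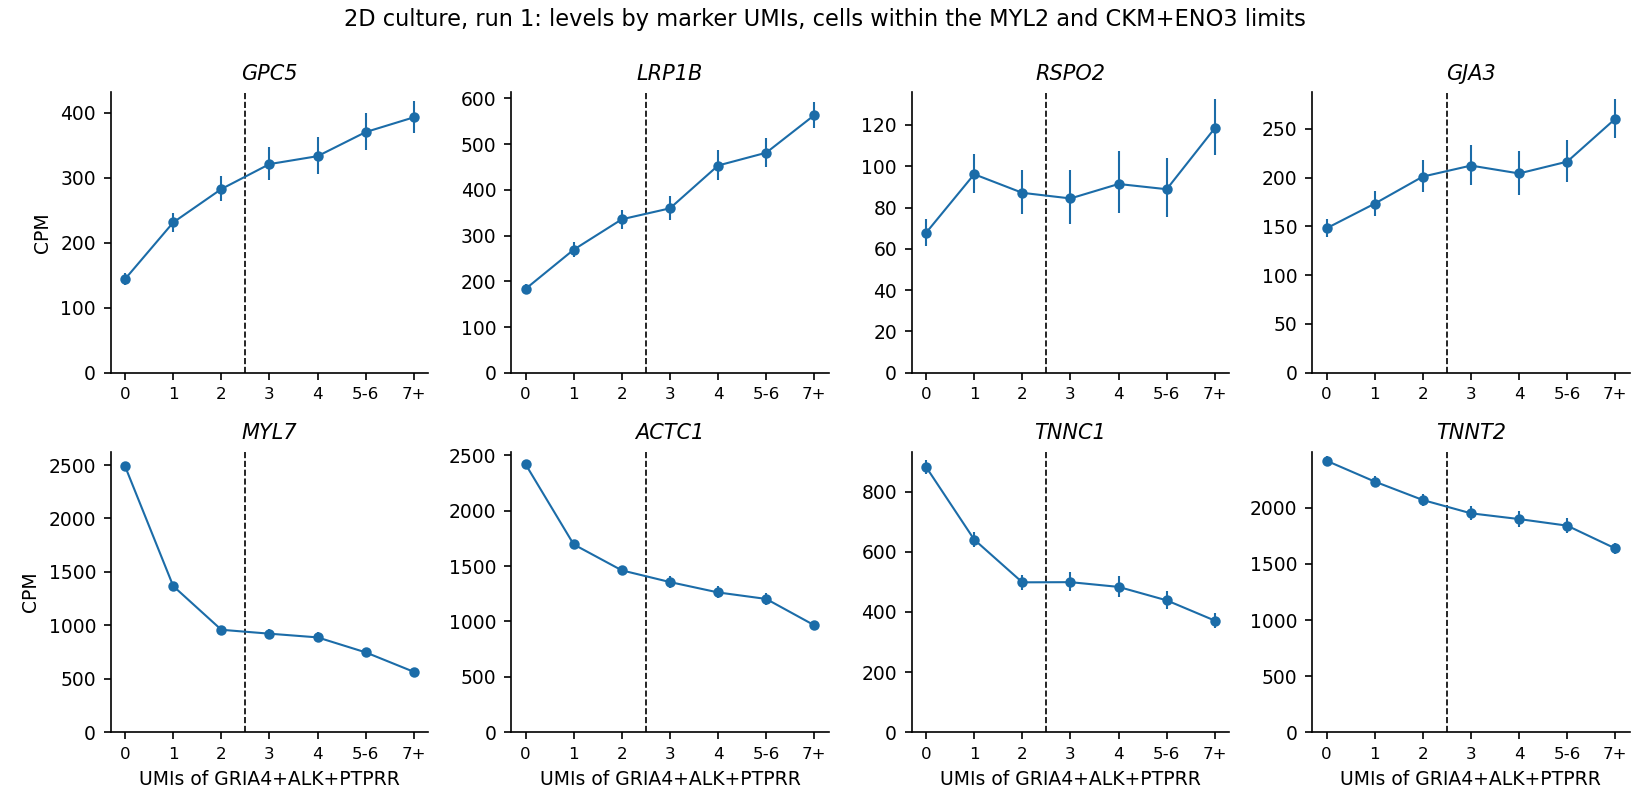
CPM (y axis) of 8 genes in 2D cardiomyocytes within the MYL2, CKM and ENO3 limits, by their UMIs of GRIA4, ALK and PTPRR together (x axis), with 95% counting intervals; the dashed line is the threshold of 3 UMIs. GPC5 runs upward, with 144 CPM at 0 and 393 CPM at 7 or more, and MYL7 downward, with 2488 and 566 CPM.

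Lists of related genes were read at a lower level of 10 CPM in the higher set, with the same fold. There, 6 of 10333 genes were higher in chosen 2D cells (0.0581%) and 32 were lower (0.31%), and the median log2 ratio was 0.07. Of the 6 measured AMPA and other glutamate receptor genes outside the rule, 0 were counted either way and all 6 had intervals above 0, with a median of 0.47. *GRIK5* and *GRIK2*, subunits of kainate receptors, had ratios of 0.75 and 0.69, and *GRIA3* and *GRIA1*, further AMPA receptor subunits, 0.50 and 0.44. *GRIA1* had 93.1 CPM in chosen and 68.8 CPM in other cells. Auxiliary and scaffold genes of AMPA receptors had 7 measured members, 0 counted and a median of 0.25, with *GRIP1* at 0.48, *CNIH3* at 0.41, *DLG3* at 0.40 and *DLG2* at 0.25.

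Genes around *ALK* and *PTPRR* were close to level. Of 7 measured genes of the ALK receptor and ligand list, 0 were counted and the median was 0.07. *MDK*, which encodes the growth factor midkine, had 287 CPM in chosen cells and 391 CPM in other cells (-0.45), and *FRS2*, an adaptor of receptor kinases, 158 and 126 CPM (0.33). None of 5 measured MAP kinase phosphatases was counted, and their median was 0.11, with *DUSP16* at 0.15 and *DUSP5* at -0.12. Of 10 measured FGF and ERK feedback genes 0 were counted, at a median of 0.17, with *SPRED2* and *SPRED1*, inhibitors of RAS signalling, at 0.44 and 0.37 and *IER3* at -0.41. FGF ligands and receptors had 7 measured members, 0 counted and a median of 0.08.

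The WNT genes near *RSPO2* also stayed within the fold. Of 5 R-spondins and their receptors 0 were counted, at a median of 0.20. *RSPO3*, another R-spondin, had 822 CPM in chosen and 717 CPM in other cells (0.20), *ZNRF3*, a ubiquitin ligase that removes WNT receptors, 0.24, and *LGR4*, an R-spondin receptor, 56.5 and 84.1 CPM (-0.57). Of 11 WNT response genes and WNT inhibitors 0 were counted, at a median of 0.13, with *LEF1* at 0.43 and *AXIN2* at 0.40. Beside *GJA3*, the only other measured connexin was *GJC1*, with 57.9 CPM in chosen and 52.1 CPM in other cells (0.15).

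Channel and adhesion genes of nerve and heart lay mostly a little above 0. All 6 measured sodium channel genes stayed within the fold, with 5 intervals above 0 and a median of 0.40, and *SCN9A* had 99.5 CPM in chosen and 73.2 CPM in other cells (0.44). Of 28 neuronal adhesion genes 0 were counted and 19 had intervals above 0, at a median of 0.22, with *CADM2* at 460.4 CPM in chosen and 313 CPM in other cells (0.56). Of 17 semaphorin, slit and netrin genes 0 were counted, at a median of 0.20, with *SLIT2* at 0.44 and *ROBO1* at 0.40. Over all genes at this level, 2762 had intervals above 0 and 1535 below it.

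Sarcomere genes ran the other way. Of 30 measured, 9 were counted as lower (*ACTA1*, *ACTC1*, *CRYAB*, *MYH7*, *MYL3*, *MYL7*, *MYOZ2*, *TNNC1* and *TNNI3*), 0 as higher, and 27 intervals lay below 0, at a median of -0.46. Summed over the list, the level was 21573 CPM in chosen and 28042 CPM in other cells. Of 13 natriuretic peptide and stretch genes 6 were lower (*NPPA*, *NPPB*, *ANKRD1*, *ACTA1*, *MYH7* and *TAGLN*), at a median of -0.63. *NPPB*, B-type natriuretic peptide, had 1.01 CPM in chosen and 17.5 CPM in other cells, and *NPPA*, the atrial peptide, 4.66 and 13.8 CPM. Against other cells within the same limits, the medians of the 2 lists were -0.41 and -0.41. On that basis *MYL3*, *MYOZ2* and *TNNI3* were no longer counted as lower. The same genes were also not counted at the 0.3% cut of *TNNT2* and *MYH6*.

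Atrial and ventricular lists were both near the median of all genes, with single members lower. Of 10 atrial genes 2 were lower (*NPPA* and *MYL7*), at a median of -0.08, and of 14 ventricular genes 2 were lower (*MYH7* and *MYL3*), at -0.05. Pacemaker and conduction genes had 12 measured members, with 0 counted and a median of 0.11. Of 19 core heart transcription factors 0 were counted, at a median of 0.06. *FGF12*, an intracellular modulator of sodium channels, was lower, with 8 UMIs over all chosen cells and 456 over other cells.

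Metabolic and cycling genes were counted in neither direction. All 46 nuclear oxidative phosphorylation genes stayed within the fold, with 40 intervals below 0 and a median of -0.20, while the 13 mitochondrially encoded genes had 10 intervals above 0 and a median of 0.08. Glycolysis genes had 22 measured members and a median of 0.00, and 22 cell cycle genes one of -0.08. Of 13 autonomic receptor and G protein genes only *RGS4* was counted, and of 7 retinoic acid genes 0 were, with *ALDH1A2* at 0.68. Calcium handling (19 genes, median 0.04), cardiac potassium channels (9, 0.15), TGF-beta and BMP genes (19, 0.10), hypoxia genes (19, 0.09), cholesterol synthesis genes (22, 0.01), immediate early genes (15, 0.04), Notch genes (5, -0.09) and interferon genes (9, -0.10) had 0 counted as well. *FABP3*, the fatty acid binding protein of heart muscle, had 330 CPM in chosen and 498 CPM in other cells (-0.60). It was not counted because its interval did not lie wholly beyond 1.5-fold.

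Markers of other cell types were read in both sets. The 7 fibroblast or stromal markers summed to 533 CPM in chosen cells and 627 CPM in other cells, with 7 of 7 detected, and *LUM*, a stromal proteoglycan, was lower at 4.66 and 13.7 CPM. The median ratio of the 6 at 10 CPM was -0.35, and 0.03 against other cells within the same limits. Of chosen cells 21.5% had 3 or more UMIs of these markers, and of other cells 18.0%. The 4 smooth muscle markers, *TAGLN* among them, summed to 939 and 1480.5 CPM. Of 5 endothelial markers, *PECAM1*, *CDH5* and *PLVAP* were at 0 in chosen cells, and the sum was 177 CPM in chosen and 151 CPM in other cells. The 5 neural markers summed to 21.4 CPM in chosen and 24.2 CPM in other cells. The 10 cardiomyocyte markers were all detected, at 13930 CPM in chosen and 16398 CPM in other cells. *TNNT2* and *MYH6* are among them, and the cardiomyocyte cut fixed their presence in both sets.

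Long genes were higher in chosen cells than short ones. By RefSeq gene span, which 95.5% of the genes at 20 CPM could be given, the median log2 ratio in the 2D culture was -0.15 under 10 kb, -0.04 from 10 to 30 kb, 0.11 from 30 to 100 kb, 0.18 from 100 to 300 kb, 0.20 from 300 to 1000 kb and 0.31 above that. Weighting to equal depth left the ends at -0.13 and 0.28. *GPC5*, *LRP1B* and *DPP10* span 1469, 1900 and 1403 kb, and *MYL7* 2.47 kb, and the genes of the rule are long as well. *MALAT1*, a nuclear RNA, had 24380 CPM in chosen and 21710 CPM in other cells (0.17), and *NEAT1*, another, 408 and 326 CPM (0.32). The part of gene span and of nuclear RNA in the differences above was not tested.

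In cardioids without PD173074 the 362 chosen cells also had more *GPC5*, *LRP1B* and *DPP10* and less *MYL7* than other cardiomyocytes. Of 8037 genes 19 were higher (0.236%) and 21 lower (0.261%). *GPC5* had 565 CPM in chosen and 226 CPM in other cells (1.32, 1.23 to 1.41), *LRP1B* 289 and 168 CPM (0.79) and *DPP10* 204 and 116 CPM (0.81). *MYL7* had 1294 CPM in chosen and 2968 CPM in other cells (-1.20), and *MYH7* a ratio of -2.25. *GJA3* had a ratio of 0.45 (0.30 to 0.60) and *RSPO2* one of 0.37 (0.13 to 0.60). Of the genes counted as higher, 3 were shared with the 2D culture (75.0% of its 4 and 15.8% of the 19), and of those lower 7 (30.4% and 33.3%). The 2 comparisons share no cells.

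Other genes were counted without PD173074 and not in the 2D culture, a difference that was not tested. *NR2F2*, an atrial transcription factor, had 36.0 CPM in chosen cells and 97.1 CPM in other cardiomyocytes (-1.43) without PD173074, against 21.8 and 23.4 CPM (-0.10) in the 2D culture. *NEFM*, a neurofilament protein, had 135 CPM in chosen and 63.9 CPM in other cells (1.08) without PD173074. At the level used for lists, 24 of 10537 genes were higher (0.228%) and 35 lower (0.332%). Sarcomere genes had 6 of 30 lower and a median of -0.45, atrial genes 4 of 10 lower (*NPPA*, *NR2F2* and *MYL7* among them) and a median of -0.51, and glutamate receptor genes 0 of 7 counted and a median of 0.45.

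With PD173074 the 55 chosen cells were few, deep and rich in stromal transcripts. They had a median of 9583 UMIs, against 6169.5 in other cardiomyocytes, and 1 of them alone held 67403 UMIs, or 10.0% of the UMIs of the 55. The stromal markers summed to 1964 CPM in chosen and 717 CPM in other cells, and 46 of 55 chosen cells (83.6%) had 3 or more UMIs of them, against 38.4% of other cells. *FN1*, fibronectin, had 434 CPM in chosen and 82.1 CPM in other cells, and *COL6A3*, a collagen VI chain, 119 and 16.2 CPM. Of 8219 genes 242 were higher (2.94%) and 83 lower (1.01%), and without the deepest cell 221 and 85. With only the 9 chosen cells under 3 stromal UMIs, 198 of 8407 genes were higher and 30 lower. Those 9 cells had *GPC5* at 229 CPM from 14 UMIs and *LRP1B* at 262 CPM from 16 UMIs. Their counts of genes thus rest on few UMIs, and the intervals leave out differences between cells. The part of these stromal transcripts and of depth in the counts was not tested.

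At the level for lists with PD173074, 322 of 10943 genes were higher (2.94%) and 103 lower (0.941%). Of 31 collagen and matrix genes 14 were higher and 1 was lower, at a median of 1.07, and of 35 cell cycle genes 15 were lower and 0 higher, at -1.86. Sarcomere genes again had 6 of 30 lower and a median of -0.52. With other cells weighted to the depths of the chosen ones, these medians were 0.53, -2.22 and -0.44 in that order. *GPC5* had 146 CPM in chosen and 67.0 CPM in other cells (1.12), *LRP1B* 274 and 97.2 CPM (1.49), *DPP10* 140 and 40.5 CPM (1.79) and *MYL7* 3103 and 8257 CPM (-1.41). *GJA3* had a ratio of 0.94 (0.51 to 1.33) and *RSPO2*, from 14 UMIs in chosen cells, one of 1.25 (0.36 to 2.03).

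Across all 3 groups, 3 genes were counted as higher (*DPP10*, *GPC5* and *LRP1B*) and 5 as lower (*ACTA1*, *ACTC1*, *CRYAB*, *MYL7* and *TNNC1*) in chosen cells. With PD173074 the lower level of *TNNC1* lay in the 46 chosen cells with 3 or more stromal UMIs, at 285 CPM, while the other 9 had 1080 CPM (interval 835 to 1374), against 931 CPM in other cardiomyocytes. *MYL7* had 2746 CPM in those 46 cells and 6674 CPM in the 9, against 8257 CPM in other cardiomyocytes. *DPP10* had 144 CPM in the 46 cells, against 40.5 CPM in other cardiomyocytes. In the 9 it rested on 6 UMIs, at 98.1 CPM with an interval of 36.0 to 214. After thinning, *DPP10* was detected with PD173074 in 31.5% of chosen cells, 7.72% of other cardiomyocytes and 17.6% of collagen-high barcodes. At the level used for lists, *MYH7* and *ANKRD1* were lower in the 2D culture and without PD173074, and they had ratios of 1.28 and 0.56 with PD173074, where other cardiomyocytes had 11.6 and 19.1 CPM. With PD173074 *ANKRD1* was detected in 1.82% of the 55 chosen cells, which is 1 cell with all 19 UMIs, and *MYH7*, also with 19 UMIs, in 12.7%.

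**Figure D5:**
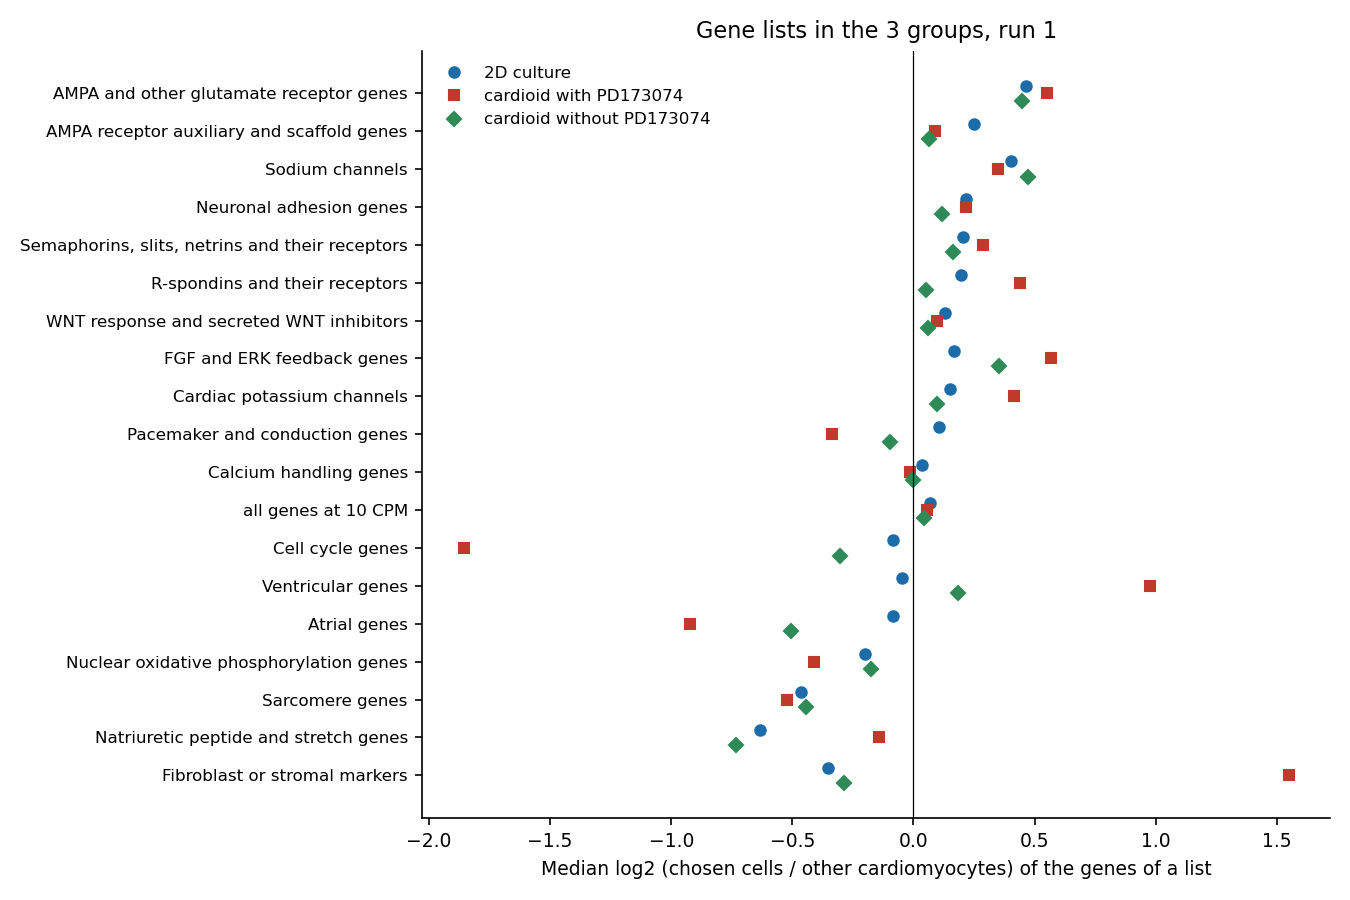
Median log2 ratio of chosen over other cardiomyocytes (x axis) for gene lists (y axis) in run 1 of the 2D culture (circles), cardioids with PD173074 (squares) and cardioids without PD173074 (diamonds). Sarcomere genes lie at -0.46, -0.52 and -0.45 and glutamate receptor genes at 0.47, 0.55 and 0.45, while stromal markers stand at 1.55 with PD173074. Weighted to equal depth, which is not drawn, the stromal median with PD173074 was 0.94.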

How the data were processed

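The 11 libraries hold single H9-derived cells. For each, the authors deposited raw UMI counts by gene and barcode, and name files with no values (unit other). Per the submitters' processing notes these come from Cell Ranger 7.0.0, with hg38 as the build. Neither annotation release nor the handling of introns was stated in what was used here. Groups came from the treatment label.

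UMIs of run 1 were summed over chosen cells and over other cardiomyocytes, and CPM was computed here from the deposited counts. A ratio is the log2 of 2 CPM values, with an exact 95% interval for a pair of Poisson counts, and shares have exact binomial (Clopper-Pearson) intervals. No test was made, since each group is 1 sample. No doublet caller was run and no cell was removed as a doublet; an alternative leaves out the 5% of barcodes with most UMIs. Cells were thinned without replacement (seed 1); shallower cells were left out, 1399 of the 2D culture, 558 with PD173074 and 364 without it at 3000 UMIs. Depth weighting used 10 bins of UMIs. Neighbours came from 2000 variable genes and 30 principal components. The ratio and interval code was tested on simulated data.

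The members, the rule, the 51 lists and the comparisons were chosen with earlier results of these data known. Named genes were, in the 2D culture, up to 12 highest and 12 lowest counted genes that stayed beyond 1.5-fold at equal depth, leaving out genes with clone or LINC names, up to 4 per list by size of ratio, the given markers and the genes of the rule; *NR2F2*, *NEFM*, *MECOM*, *KHDRBS2*, *ANGPT1*, *KCNQ3*, *MALAT1*, *NEAT1*, *TNNC1*, *ACTC1*, *FN1*, *COL6A3* and other genes of the counts were named after their values were seen. Values of some single genes are not reported here. Gene spans came from RefSeq GRCh38.p14. Python 3.11.15, numpy 2.4.6, scipy 1.17.1, pandas 2.3.3 and matplotlib 3.10.9 were used. Alternatives were runs 2 and 3, 2 or 4 UMIs of the 3 genes, no *MYL2*, *CKM* or *ENO3* limit, a mitochondrial limit of 15%, a *TNNT2* and *MYH6* cut of 0.3%, thinning, depth weighting, 2 other scalings, floors of 5 and 50 CPM and a fold of 2; comparison cells within the same limits were added after seeing the data.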

Additional observations from a re-analysis of the deposited data

Results flagged for a closer look

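*MECOM*, a zinc finger transcription factor, differed in direction between groups. Its log2 ratio of chosen over other cardiomyocytes was -0.88 in the 2D culture (14.4 and 26.4 CPM), 2.01 with PD173074 (277 and 68.6 CPM) and 0.58 without PD173074 (44.2 and 29.5 CPM). In the 2D culture it was no longer counted as lower in run 2, in run 3, with 2 or 4 UMIs as threshold, without the *MYL2*, *CKM* and *ENO3* limits or at the 0.3% cut of *TNNT2* and *MYH6*. The difference between groups was not tested, and stromal transcripts were also higher in the chosen cells with PD173074.

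UMIs of *GRIA4*, *ALK* and *PTPRR* also appeared in barcodes under the cardiomyocyte cut, which the comparisons did not use. There, 13.9% of 1245 barcodes had 3 or more in the 2D culture (173, of which 40 were collagen-high), 7.57% of 1241 with PD173074 (94) and 9.28% of 485 without it (45). Their median depths were 6461, 8591 and 5520 UMIs in the same order of groups.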

How the results depend on the processing

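The share of chosen cells followed the threshold: with 2 or more UMIs of the 3 genes it was 28.6% in the 2D culture, 3.07% with PD173074 and 17.6% without it, and with 4 or more 13.3%, 0.857% and 8.18%. Without the *MYL2*, *CKM* and *ENO3* limits it was 30.5% in the 2D culture and 19.3% without PD173074, and with a *TNNT2* and *MYH6* cut of 0.3% it was 16.3% in the 2D culture. Thinning to 3000 UMIs gave 16.1%, 0.531% and 7.62% in the 3 groups, and to 5000 UMIs 29.8%, 0.934% and 14.2%. Run 3 without PD173074, the shallowest, gave 7.93%.

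The 4 higher genes of the 2D culture became 7 in run 3, 1 with 2 or more UMIs, 23 without the limits, 1 at the 0.3% cut, 7 without the deepest 5% of barcodes, 9 at a floor of 5 CPM and 0 at a fold of 2. The 23 lower genes became 15 at the 0.3% cut, 41 at 5 CPM and 8 at a fold of 2. Against other cells within the same limits 10 genes were higher, and against those that also had 0 UMIs of the 3 genes 52 were higher and 54 lower. With cells chosen anew, 1 of the 4 higher and 20 of the 23 lower genes were shared in run 2, and likewise in run 3. The cause of these moves was not tested.

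For single named genes, 1983 values stayed within their counting interval, 427 moved and 1 reversed, *LUM* in the 2D culture at 0.21 without the limits. Low counts limit *RSPO2* and *PTPRR* with PD173074. No paired analysis was possible because the runs of a group are repeat reads of the same droplets and no test was made.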
